A study of Mus musculus with 2 samples.

Results

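Mucin O-glycosylation and the capping of glycan chains were followed here through 84 genes, chosen by symbol alone: the protein-coding genes named Galnt, Gcnt, B3gnt, B3galt, B4galt, B4galnt, Fut, St3gal, St6gal, St6galnac or Chst with a number, together with C1galt1 and C1galt1c1. They were 84 of 21474 protein-coding genes with a symbol, among 43346 Ensembl genes in the tables. Colon tissue of adult mice (strain C57BL/6J, 8 weeks of age) was profiled by polyadenylated RNA sequencing in 2 libraries, numbered by the labels as biological replicates 1 and 2 of 1 group, with no treatment named. The labels give the sex of the tissue as pooled male and female and the same donor record for both libraries. Sex-linked genes, given below, did not bear out the pooled sex. How much of the spread between the libraries is technical is thus not known. With 1 group, the data give the level of each gene, and the only comparison is of the libraries with each other.

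Mucins are proteins whose serine and threonine residues carry dense sugar chains. A GALNT enzyme attaches the first sugar, N-acetylgalactosamine (GalNAc), and other transferases turn it into a core structure by adding galactose (core 1) or N-acetylglucosamine, GlcNAc (core 3), and by branching (core 2 and core 4). Chains are then lengthened with GlcNAc and galactose and ended with fucose, sialic acid, GalNAc or sulfate. Core 3 chains are known from the mucus of the colon. Several of the enzymes also work on glycolipids, N-linked glycans or proteoglycans, so a gene's level does not tell which substrate it serves.

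Levels are in TPM (transcript abundance divided by length and scaled to a fixed total), a unit that lets genes be ranked within a library. Expected counts are the reads that the authors' quantifier assigned to each gene; over Ensembl genes they totalled 46271167 in replicate 1 and 45499561 in replicate 2. Markers of the labelled tissue were present: 10 of 10 goblet cell, 8 of 8 absorptive colonocyte and 5 of 5 colon position markers reached 1 TPM in both libraries, with sums of 29863 and 33873, 19650 and 21272, and 1415 and 1359 TPM in replicates 1 and 2. The libraries also differed in markers of other cells. The 11 pancreatic acinar markers were at 454.5 and 35581 TPM in sum in replicates 1 and 2, the 5 red blood cell markers at 525 and 2998, and the 6 adipocyte markers at 219.9 and 474, with no marker of these lists at 0. Most of the acinar sum of replicate 1 was Cela1, with 422.6 TPM there and 2606 in replicate 2. Each of the other acinar markers lay between 0.14 and 12.5 TPM in replicate 1. Most of the adipocyte sum was Cfd, with 181 and 412 TPM, while Adipoq had 13.95 and 17.1 and Lep, higher in replicate 1, had 1.16 and 0.85. The smooth muscle sums were 7061 and 6970 TPM, and the plasma and B cell sums 330.3 and 363. Against the label of pooled sexes, 4 Y-linked genes had 0 counts in replicate 1 and 1382 in replicate 2, and Xist had 8721 and 12. By these genes the libraries looked like tissue of opposite sex, so a difference between them cannot be told apart from one of sex.

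A TPM of at least 1 in both libraries was reached by 67 of the 84 genes, or 79.8%, against 57.9% of all protein-coding genes. The median of the mean TPM was 10.8 over the 84 genes and 2.85 over protein-coding genes. Mean levels were at least 100 TPM for 6 genes, from 10 to 100 for 36, from 1 to 10 for 27 and under 1 for 15. Of the rest, 12 genes stayed below 1 TPM in both libraries, 4 passed in replicate 1 alone (Fut1, St6galnac5, Chst10 and Chst13) and 1 in replicate 2 alone (St6galnac1). Gcnt7 and Chst9 were listed at 0 counts in both. The span of Gcnt7 lies on the opposite strand from Rtf2, which had 2035 and 1766 counts.

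Summed over the 84 genes, levels came to 4467 and 4678 TPM in replicates 1 and 2, or 0.453% and 0.475% of the TPM of Ensembl genes. St6galnac6 alone gave 34.0% and 32.8% of that sum, and with B3gnt7 and B3gnt3 57.7% and 60.5%. By TPM, the profile was thus carried by a sialyltransferase and a pair of GlcNAc transferases. The plot of levels by role shows the distance to the next genes. The share of St6galnac6 depended on the length used, as given further on.

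**Figure D1:**
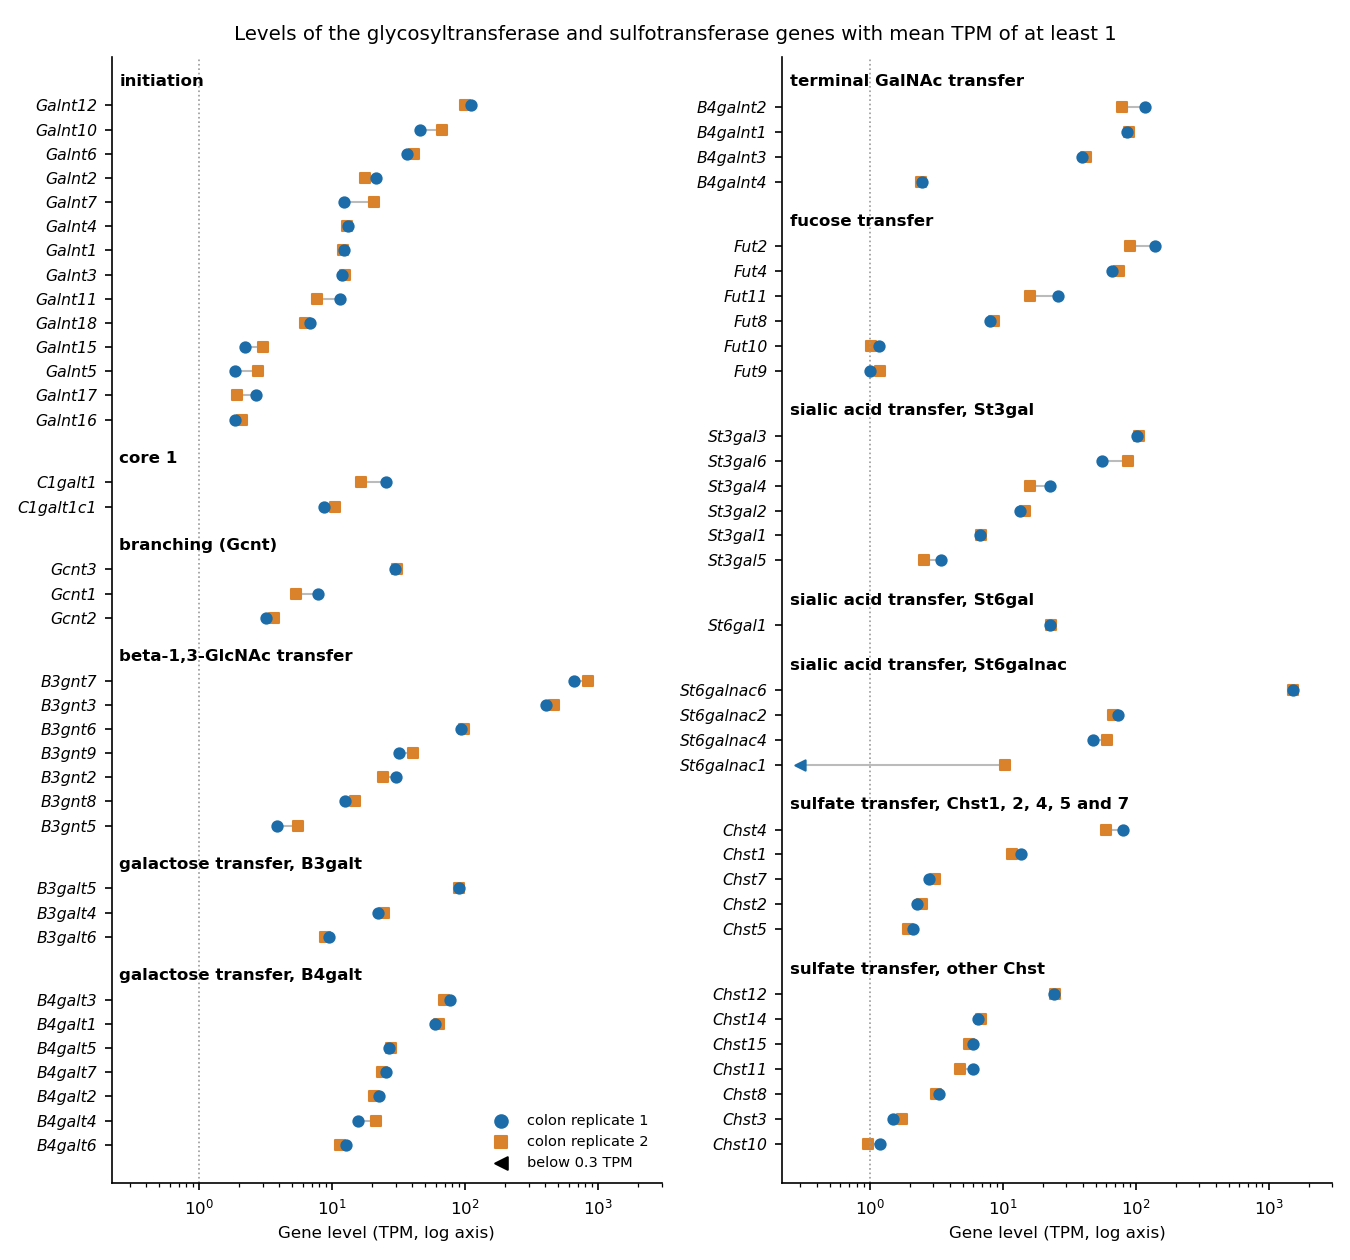
Level of each gene with a mean of at least 1 TPM in colon replicate 1 (circles) and replicate 2 (squares), grouped by role, on a log axis; grey lines join the libraries, the dotted line marks 1 TPM, and a triangle stands for a value below 0.3. St6galnac6, B3gnt7 and B3gnt3 lie furthest to the right, and St6galnac1 has the longest line, from 0 TPM in replicate 1 to 10.4 in replicate 2.

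Initiation was shared among many GALNT genes. Of 17 measured, 14 reached 1 TPM in both libraries, and the family's levels added up to 289.9 and 308 TPM in replicates 1 and 2. Galnt12 was the highest, with 109.8 and 100.2 TPM, or 37.9% and 32.5% of the sum (chromosome 4, 47091909 to 47123070, mm10). Galnt10 followed with 46.0 and 66.7 TPM, and Galnt6 with 36.2 and 41.0. Galnt2, Galnt7, Galnt4, Galnt1 and Galnt3 lay between 11.8 and 21.2 TPM. For Galnt2 the division of reads was uncertain, since a read-through gene on the same strand, Gm20388, had 3826 and 3487 counts with a posterior SD, the quantifier's own uncertainty of a count, of 177 and 146. Galnt9, Galnt13 and Galnt14 were below 1 TPM in both libraries.

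The core 1 and core 3 routes differed in level. C1galt1, which adds the galactose of core 1, was at 25.4 and 16.4 TPM in replicates 1 and 2, and its chaperone C1galt1c1 had 8.70 and 10.5. B3gnt6, which makes core 3, had 92.3 and 97.5 TPM. In each library B3gnt6 was above C1galt1, 3.64 times in replicate 1 and 5.94 times in replicate 2, and both genes had 1 annotated transcript, so transcript choice does not enter this ratio.

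Branching rested mostly on Gcnt3, the core 2 and core 4 branching enzyme of mucin-secreting tissue. It had 29.5 and 30.5 TPM, 71.9% and 76.1% of the sum of the 5 Gcnt genes. Gcnt1, a core 2 enzyme of many tissues, had 7.82 and 5.33 TPM, and Gcnt2, which makes the I branches of lactosamine chains, 3.16 and 3.62. Gcnt4 stayed at 0.59 and 0.63.

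GlcNAc transferases that lengthen chains gave one of the highest sums, 1231 and 1478 TPM. B3gnt7, which extends sulfated lactosamine chains, had 654 and 835 TPM (chromosome 1, 86302832 to 86307305, mm10). B3gnt3, which extends core 1, had 405.9 and 461 (chromosome 8, 71690756 to 71701789). B3gnt6 was the third. B3gnt9 and B3gnt2, the latter a main enzyme of lactosamine chains, lay between 24.1 and 40.4 TPM, B3gnt8 had 12.4 and 14.8, and B3gnt5, the glycolipid enzyme, 3.83 and 5.56.

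Galactose transfer split into a family led by 1 gene and a family with a flatter profile. B3galt5, which makes type 1 chains, had 89.8 and 89.05 TPM, 73.9% and 72.5% of the B3galt sum, and was 4.09 and 3.62 times B3galt4, a ganglioside enzyme with 21.96 and 24.6. B3galt6, an enzyme of the proteoglycan linker, had 9.52 and 8.74. All 7 B4galt genes were above 10 TPM in both libraries: B4galt3 had 77.2 and 68.7, B4galt1, the galactosyltransferase of N-glycans and lactose, 58.7 and 63.4, and B4galt5, a lactosylceramide enzyme, 26.9 and 27.5.

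Terminal GalNAc transfer summed to 246 and 213 TPM over 4 genes. B4galnt2, the Sda antigen enzyme known from the gut, was at 117.9 and 79.4 TPM. B4galnt1, the ganglioside GM2 enzyme, had 86.1 and 88.7, and B4galnt3, which makes GalNAc-GlcNAc ends, 39.7 and 42.3.

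Fucosyltransferase levels added up to 245 and 195 TPM in replicates 1 and 2, the lower sum mainly through Fut2. Fut2, the secretor gene that puts fucose on galactose ends of mucin chains, had 140.7 and 91.5 TPM, 57.4% and 46.9% of the sum (chromosome 7, 45648591 to 45666394, mm10). Its neighbour Fut1, with the same reaction, had 1.11 and 0.73, so Fut2 was 127 and 125 times higher. Fut4, a Lewis x enzyme, had 66.8 and 75.5 TPM, and Fut11 26.2 and 16.2. Fut8, which adds the core fucose of N-glycans, had 7.97 and 8.59.

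Sialic acid transfer had its highest level in the St6galnac family, which summed to 1640 and 1674 TPM. St6galnac6, known for disialylated glycolipids and disialyl Lewis a, had 1517 and 1534 TPM, 92.5% and 91.6% of the family sum, and ranked 69 of the protein-coding genes by mean TPM (chromosome 2, 32599709 to 32620806, mm10). St6galnac2, which acts on core 1 and GalNAc, had 73.9 and 67.6 TPM, and St6galnac4 47.5 and 61.4. The St3gal family summed to 205 and 233.5 TPM, led by St3gal3 with 102.2 and 106.0, St3gal6 with 55.96 and 87.4 and St3gal4 with 22.8 and 15.97. The place of St3gal6 rested on short models: by the longest-transcript level described further on it had 19.3 and 23.9 against 34.85 and 23.5 for St3gal4, and in complete coding transcripts 13.8 and 15.9 TPM against 22.8 and 15.97. St6gal1, the N-glycan enzyme, had 22.7 and 22.9 TPM, and St6gal2 0.09 and 0.04.

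Chst4 led the sulfotransferases. Among Chst1, Chst2, Chst4, Chst5 and Chst7, which sulfate position 6 of GlcNAc, galactose or GalNAc, Chst4 was at 80.7 and 59.6 TPM, 79.3% and 75.5% of their sum. Chst1 followed with 13.9 and 11.8, and Chst7 with 2.80 and 3.10. Chst5, often described as the intestinal enzyme, had 2.11 and 1.95 TPM, so that Chst4 was 38.2 and 30.5 times higher. Of the 9 other Chst genes, most of them enzymes of chondroitin and dermatan sulfate, Chst12 had 24.4 and 24.8 TPM, Chst14 6.52 and 6.93, and Chst15 6.00 and 5.54.

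The high TPM of St6galnac6 came mostly from a short transcript. St6galnac6-209, of 1013 bases, had 1180 and 1213 TPM, or 77.8% and 79.0% of the gene's TPM, and 61.8% and 63.7% of its counts. The longer St6galnac6-201, of 2277 bases, had 162 and 156 TPM, 10.7% and 10.2%. Both encode complete proteins that differ at their start. The last 57 coding bases before their shared exon are printed here, where the transcripts differ, in lower case, with the first 30 shared bases in capitals (plus strand, GRCm38). The specific bases lie at chr2:32599780-32599836 for St6galnac6-209 and chr2:32609260-32609316 for St6galnac6-201, and the shared ones at chr2:32612224-32612253.
St6galnac6-209: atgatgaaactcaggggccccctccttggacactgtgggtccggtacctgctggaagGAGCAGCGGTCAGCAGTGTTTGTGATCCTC
St6galnac6-201: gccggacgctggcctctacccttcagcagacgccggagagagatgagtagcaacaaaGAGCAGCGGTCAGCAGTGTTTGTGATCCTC
The lower-case stretch of St6galnac6-209 opens with the start codon. RefSeq (GRCm38.p6) places the start of the gene at the first base of St6galnac6-209, 32599709. That base is 11 bases past the annotated end of St6galnac4, which lies upstream on the same strand, and 8362 bases before the start of St6galnac6-201. The annotated model of St6galnac6-209 stops 3 bases after the last coding base, the stop codon, while St6galnac6-201 runs on for 1278 bases. A short model turns a given number of reads into a higher TPM.

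The order of the first genes therefore depended in part on the length given to each gene. When expected counts were divided by the longest annotated transcript of each gene and scaled to the same total as TPM, a measure added after seeing the data, B3gnt7 came first with levels of 1013 and 1240 and St6galnac6 came after it with 1029 and 998. B3gnt3 stayed the third with 622 and 682. The order of B3gnt7 and St6galnac6 thus depended on the length used, and on the longest-transcript scale also on the library. On that scale the 84 genes summed to 5326 and 5331, so St6galnac6 made up a smaller share than by TPM. The family sums changed order too. The B3gnt genes had 1885 and 2159 and the St6galnac genes 1145 and 1121, while by TPM they had 1231 and 1478, and 1640 and 1674. Of the 69 genes with a mean of at least 1 TPM, 1 had a TPM at least 2 times its longest-transcript level, against 6.01% of protein-coding genes. This was St3gal6, which went from rank 12 to rank 33 among the 84 genes. B4galt2 went from 29 to 45. Equal values are not the middle of this scale. The median ratio of TPM to longest-transcript level was 0.67 over the 69 genes and 0.76 over protein-coding genes with a mean of at least 1 TPM. Against that middle, St6galnac6 with a ratio of 1.505 and B4galt2 with 1.61 also stood high.

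**Figure D2:**
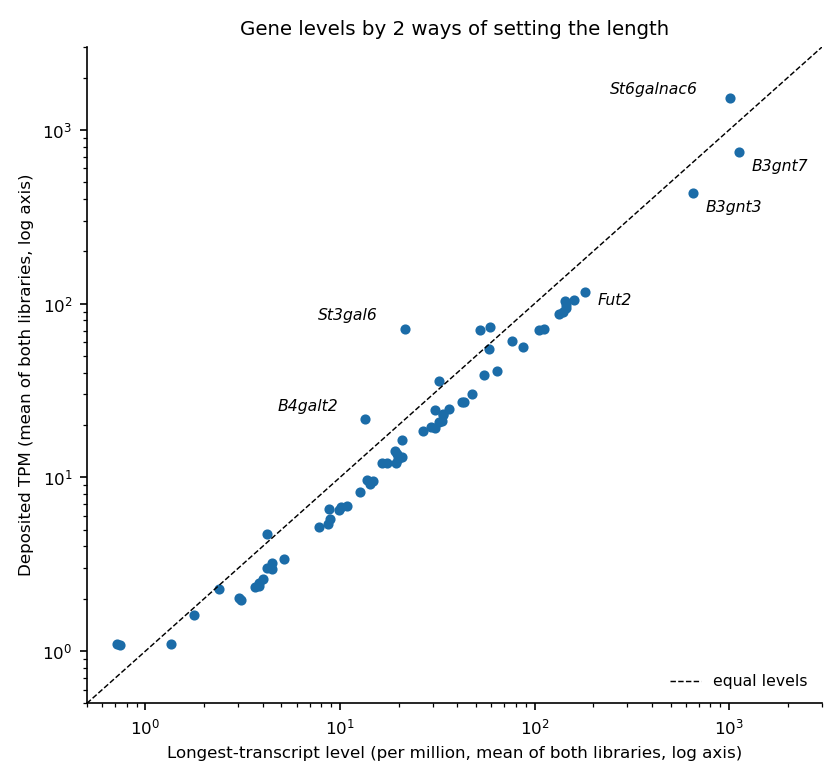
Deposited TPM (vertical) against the longest-transcript level (horizontal), both as means of the 2 libraries on log axes, for the 69 genes with a mean of at least 1 TPM; the dashed line marks equal values. St3gal6 lies furthest above the line relative to its level, with 71.7 TPM against 21.6, and St6galnac6 and B3gnt7 change order between the axes.

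For genes with several transcripts, the leading transcript is the one with the largest share of the gene's TPM. Among 43 such genes with a mean of at least 1 TPM, 36 had the same leading transcript in both libraries, and all 36 of those transcripts had a complete annotated coding sequence. In the other 7 it differed (B3gnt9, B4galt4, Chst10, Chst3, Gcnt2, St3gal6 and St6galnac2), a share of 16.3% against 13.1% of all such protein-coding genes. At least 90% of the TPM came from the leading transcript in both libraries for 11 of the 43, and under 50% in both for 5.

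B3gnt9 had the widest exchange among the genes with at least 200 counts in each library. B3gnt9-201 took 67.6% of its TPM in replicate 1 and 31.6% in replicate 2, and B3gnt9-203, a model of 642 bases whose coding sequence is incomplete, took 27.5% and 62.3%. Their counts were 1657 and 979 for B3gnt9-201, with posterior SDs of 40.5 and 47.1, and 138 and 401 for B3gnt9-203, with 27.7 and 21.4. The gene's TPM was higher in replicate 2 (31.7 and 40.4) while its counts were lower there (1925 and 1585), so the direction for B3gnt9 depended on the transcript model.

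B4galt4 divided between complete transcripts, with 64.8% and 47.4% for B4galt4-205 and 32.6% and 49.7% for B4galt4-201. In St6galnac2 the complete St6galnac2-201 took 40.1% and 30.5%, and St6galnac2-205, a noncoding model of 579 bases, 36.6% and 47.5%. By counts St6galnac2-201 led in both libraries, with 3716 and 2559 against 365 and 439. St3gal6 was the most divided: its leading transcripts were St3gal6-212, a noncoding model of 372 bases, with 26.4% in replicate 1, and St3gal6-209, of 498 bases and with an incomplete coding sequence, with 35.4% in replicate 2. Complete coding transcripts made up 24.6% and 18.2% of the TPM of St3gal6, 53.4% and 40.6% of that of St6galnac2 and 72.5% and 37.7% of that of B3gnt9. These 3 of 69 genes, 4.35%, had under 50% in either library, against 21.0% of protein-coding genes with a mean of at least 1 TPM. Chst3 and Chst10 rested on few counts, with 24.6 and 48.1 for Chst3-203 and 9.38 and 4.41 for Chst10-204, too few to show an exchange at this depth.

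Gcnt2 is a case in which transcripts differ by first coding exon and encode different proteins with a common end. Gcnt2-201 took 54.1% of its TPM in replicate 1 and 39.3% in replicate 2, Gcnt2-203 33.7% and 46.6%, and Gcnt2-202 12.2% and 14.2%. Their counts were 238 and 195 for Gcnt2-201, with posterior SDs of 16.9 and 15.9, and 161 and 251 for Gcnt2-203, with 16.3 and 16.2. All 3 first exons were thus read in this tissue. The last 45 bases of each first coding exon are shown in lower case, with 30 bases of the shared exon in capitals (plus strand, GRCm38). The specific bases lie at chr13:40918757-40918801 for Gcnt2-201, chr13:40888241-40888285 for Gcnt2-202 and chr13:40861229-40861273 for Gcnt2-203, and the shared ones at chr13:40953576-40953605.
Gcnt2-201: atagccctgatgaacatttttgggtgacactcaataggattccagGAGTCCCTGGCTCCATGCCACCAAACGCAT
Gcnt2-202: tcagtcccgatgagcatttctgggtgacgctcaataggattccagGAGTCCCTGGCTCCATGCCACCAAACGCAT
Gcnt2-203: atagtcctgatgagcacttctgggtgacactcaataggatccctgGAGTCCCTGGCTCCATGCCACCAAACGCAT
The lower-case stretches resemble each other without being identical, and a read inside the capitals cannot tell the transcripts apart.

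**Figure D3:**
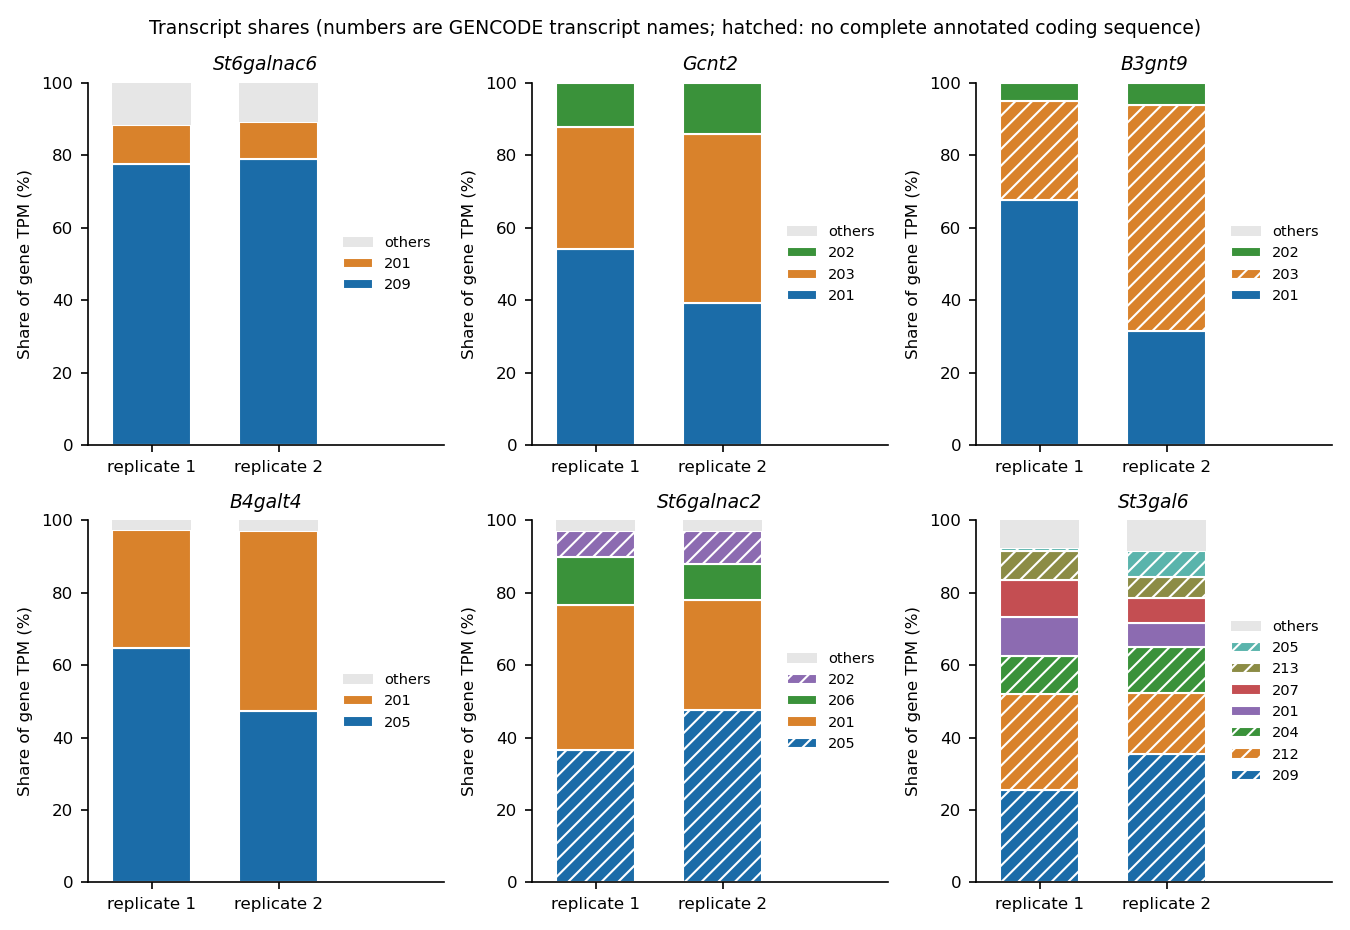
Share of each gene's TPM (percent) given to its transcripts in colon replicates 1 and 2 for 6 genes; colours are GENCODE transcripts, hatching marks models without a complete annotated coding sequence, and grey is the rest. St6galnac6 has nearly the same division in both libraries, while the leading transcript differs in the other 5 genes.

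Between the libraries, 82 genes had a summed count of at least 10 and were compared by a two-sided exact binomial test on rounded expected counts, adjusted by the Benjamini-Hochberg method over all 17713 genes tested. A gene was said to differ where the adjusted p was 0.05 or less and the log2 ratio, replicate 1 over replicate 2, was 1 or more in size. Only counting error enters this test, and it sets one library against the other with no replicate check. In bulk tissue, fewer cells of a type and less RNA per cell cannot be told apart. Of the 82 genes 5 differed, or 6.1%, against 6.12% of all genes tested and 4.41% of protein-coding genes tested. Resting on 5 genes, this share is not read as a result about these genes. Higher in replicate 1 were 2 (background 2.49%) and higher in replicate 2 were 3 (background 3.63%). The median log2 ratio was 0.003 over the 82 genes and -0.005 over all genes. In size, the median ratio was 0.222 and 0.232, and 0.211 over protein-coding genes tested. Within 2-fold were 76 of the 82, or 92.7%, against 91.2%.

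St6galnac1, the enzyme that makes the sialyl-Tn antigen and sialylates GalNAc and core structures of mucins, was the member furthest apart. It had 0 counts in replicate 1 and 819.6 in replicate 2, or 0 and 10.4 TPM. With its assigned reads taken as they stand, and 3 counts in replicate 1 as the counting limit of a 0, it was at least 279-fold higher in replicate 2, a figure that does not allow for reads shared with a near-identical copy (adjusted p = 6.16e-249, exact binomial test; chromosome 11, 116765025 to 116775507, minus strand, mm10). Its count was not a whole number, and the deposited posterior SD was 7.95 in replicate 2. A pseudogene 15192 bases away, Gm11735, named here after its values were seen, had 40 counts in replicate 1 and 260.4 in replicate 2 with the same posterior SDs, and the pair summed to whole numbers, 40 and 1080.

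The pair is near-identical in sequence, and reads inside the shared stretches cannot be assigned to either. St6galnac1-201 and Gm11735-201 aligned over 1581 bases, the whole coding sequence of St6galnac1, with 32 differing bases, an identity of 98.0%. Of the 2317 stretches of 76 bases in St6galnac1-201, the read length, 621 (26.8%) occurred unchanged in Gm11735-201. The aligned stretch of 120 bases within 1 exon with the most differing bases is shown, minus strand, GRCm38, at chr11:116769250-116769369 for St6galnac1-201 and chr11:116742581-116742700 for Gm11735-201. Capitals mark the 11 bases that differ.
St6galnac1-201: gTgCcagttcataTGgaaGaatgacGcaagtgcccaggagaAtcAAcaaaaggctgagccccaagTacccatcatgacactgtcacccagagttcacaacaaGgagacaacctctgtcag
Gm11735-201: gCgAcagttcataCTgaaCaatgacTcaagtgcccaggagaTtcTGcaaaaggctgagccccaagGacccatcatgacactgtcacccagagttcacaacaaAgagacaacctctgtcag
Summed, St6galnac1 and Gm11735 were 27.6-fold higher in replicate 2 (log2 ratio -4.77). If every read of the pair in replicate 1 were given to St6galnac1, the value of St6galnac1 in replicate 2 would still be 20.9-fold higher. This lower figure allows for the shared reads of replicate 1 only. It keeps the 819.6 counts assigned to St6galnac1 in replicate 2, whose division is uncertain too. A noncoding gene 5652 bases away on the other strand, BC018473, also chosen after its values were seen, had 1 and 93 counts (log2 ratio -5.99). Other neighbours did not differ by these thresholds, among them St6galnac2 with 4771 and 3530 counts and Mxra7 with 2185 and 2213. Acinar markers moved the same way, 11 of 11 higher in replicate 2, as did 5 of 5 red blood cell and 2 of 6 adipocyte markers (Cfd and Fabp4), 1 of 6 plasma and B cell markers (Ms4a1, 18 and 47 counts) and the Y-linked genes, with the sums given above. By edgeR's exact test the 11 acinar and 5 red blood cell markers were still called, and Cfd, Fabp4 and Ms4a1 were not. Of the 10 goblet markers 1 differed, Ang4, with 738 and 155 counts (log2 ratio 2.22). Ang4 was higher in replicate 1 and was also still called by edgeR's exact test. The part of these cells, or of the animals sampled, in the St6galnac1 difference was not tested.

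The other 4 genes that differed were low. B3gnt4 had 13 and 2 counts, 0.29 and 0.05 TPM (log2 ratio 2.40, adjusted p = 0.0192, exact binomial test). Its span overlaps AC157931.1 on the same strand, with 6 and 0 counts, and Diablo on the opposite strand, with 1902 and 1922. Chst13, a chondroitin sulfotransferase, had 68 and 27 counts (1.29, adjusted p = 0.000175, exact binomial test). B3galt2 had 38 and 77 counts (-1.04, adjusted p = 0.000728, exact binomial test) and overlaps Cdc73 on the opposite strand, with 134 and 170. Galnt13, a GALNT gene best known from the nervous system, had 18 and 36 counts (-1.01, adjusted p = 0.0344, exact binomial test). Each of these ratios was held by under 100 counts in a library, and B3galt2 and Galnt13 were barely past the fold threshold. With the spread taken from the libraries themselves (edgeR's exact test at the common dispersion), 1 of the 82 genes differed, 1.22% against 1.35% of all genes. It was St6galnac1. That spread was estimated with both libraries as 1 group, so the differences under test are part of it. Few calls are therefore built into this test, and a gene that it does not call is not shown to be equal.

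**Figure D4:**
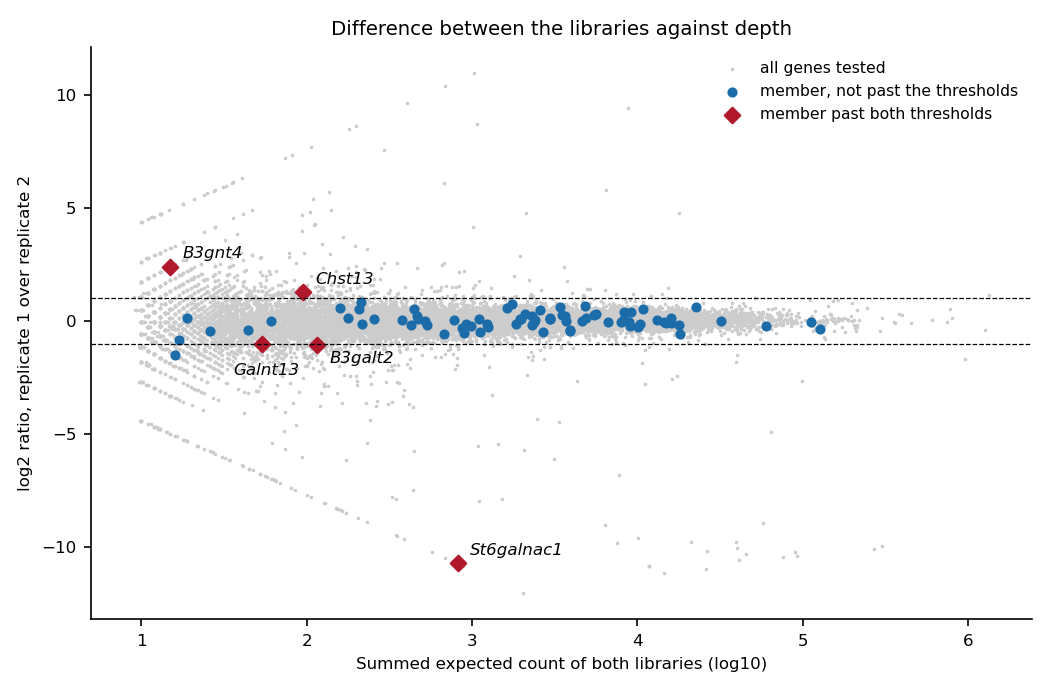
Log2 ratio of replicate 1 over replicate 2 against the summed expected count (log10) for all 17713 genes tested (grey) and the 82 of the glycosylation genes, of which 5 are past both thresholds (diamonds); dashed lines mark a ratio of 2-fold. St6galnac1 lies at -10.71, and the other 4 diamonds at summed counts of 15 to 115.

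At any fold, 50 of the 82 genes (61%) had an adjusted p of 0.05 or less by the exact binomial test, against 48.9% of all genes. Replicate 1 was the higher one for 26 of them and replicate 2 for 24. The largest of these among genes with a mean of at least 10 TPM were below 2-fold. Fut11 had 3007 and 1835 counts (log2 ratio 0.68), C1galt1 2080 and 1333 (0.61), Fut2 13662 and 8796 (0.61) and B4galnt2 6517 and 4356 (0.55), all higher in replicate 1. Galnt10 had 7386 and 10601 (-0.55), higher in replicate 2. These sizes are within the 2-fold that holds 91.2% of all genes. The exact binomial test picks up smaller ratios at higher counts. The median of the mean TPM was 10.8 over the 84 genes, against 2.85 over all protein-coding genes, tested or not. The median size of the ratio was 0.222 over the 82 genes, 0.232 over all genes tested and 0.211 over protein-coding genes tested. The share of 61% is not read as a larger difference in these genes, and its cause was not tested.

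Genes that feed or use these enzymes were taken from 7 lists. Of 71 such genes tested, 1 differed between the libraries, or 1.41%, against 6.12% of all genes tested and 4.41% of protein-coding ones. Among mucins Muc2, the gel-forming mucin of the colon, had 8861 and 11591 TPM, Muc13 1472 and 968, and Muc3 881 and 1132, and 0 of 9 tested differed. Sialic acid supply was led by Nans with 240.4 and 298.5 TPM, Gne with 193 and 282 and Cmas with 188 and 168. Fucose supply was led by Gmds with 630.5 and 568 TPM, ahead of the transporter Slc35c1 with 420.3 and 292.5 and Tsta3 with 179.7 and 176. Of the enzymes and carriers of the other nucleotide sugars, the transporter Slc35a2 had 247 and 194 TPM, and Galt 101.7 and 92.7. On the sulfate list the exchanger Slc26a3 had the highest level, 139.5 and 168 TPM, but it is also among the absorptive colonocyte markers. Its level is therefore not read as a measure of sulfate supply. Slc35b2 followed with 80.7 and 74.3 TPM and Papss1 with 68.0 and 64.2. None of the 30 genes tested in the 4 supply lists differed. Median log2 ratios were -0.38 for mucins, -0.10 for sialic acid, 0.00 for fucose, 0.03 for the other nucleotide sugars and -0.01 for sulfate, beside -0.005 for all genes.

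Related transferases outside the symbol rule were led by Gal3st1 with 145.8 and 125.6 TPM, Pofut2 with 60.9 and 58.9 and Gal3st2b with 37.4 and 53.2. Gal3st2, which sulfates galactose, was the 1 gene that differed, with 7.35 and 22.9 TPM (log2 ratio -1.67), and it was not called by edgeR's exact test. It has close copies, Gal3st2b and Gal3st2c, so the division of its reads is uncertain. Among enzymes that remove sugars, the sialidase Neu1 had 235 and 175 TPM and the fucosidases Fuca1 and Fuca2 166 and 168, and 41.3 and 38.6.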

How the data were processed

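RNA-seq gene and transcript tables of both colon libraries were used as deposited. Per the file headers, they hold expected counts, TPM, FPKM, posterior means and SDs of counts, and each transcript's percent of its gene's TPM (IsoPct), columns of the kind RSEM writes. All of these were computed by the authors. Per the deposited file notes, the tables rest on mm10 and GENCODE M4. The aligner used, and any use of strand in counting, is not given in the sources used here, so overlapping genes are uncertain: 9 members overlap a gene with counts on the same strand and 25 on the opposite strand. Features that are not Ensembl genes took 0.896% and 1.02% of counts and were left out of the tests.

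Symbols, biotypes and coordinates came from GENCODE vM21 (42462 of 43346 Ensembl genes and 256 of 257 member transcripts matched). Expected counts were rounded, scaled by edgeR 4.0.16 (TMM; R 4.3.3) and compared by the exact binomial test (scipy 1.17.1), with 0.5 added for ratios. In counts simulated for this comparison with counting error only, 200 of 200 genes changed 4-fold were recovered and 1 unchanged gene passed among 17504 tested. The changed genes were drawn from those with a summed count of at least 200. This check therefore does not cover genes with fewer counts, or false calls from a spread between libraries beyond counting error. Members, lists and tests were chosen with earlier results of these data known. The rule for named genes took the 3 highest members of each role and list, members that differed or changed leading transcript, members at 0, and genes overlapping members that differed; 1 gene that it takes is not reported here. Splice junction and contig files on mm9 were not used here. Count floors cover counting error only.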

Additional observations from a re-analysis of the deposited data

How the results depend on the processing

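The number of genes detected kept to within 1.5 times of 67 in every setting tried, 71 at 0.5 TPM, 51 at 5 TPM, 68 with posterior mean TPM and 65 with FPKM, and 68 and 71 without replicate 1 or replicate 2. The number differing was 5 with DESeq2 1.42.0 size factors, total counts, posterior mean counts or no count minimum, and 4 with 2 added to each count, where Galnt13 was no longer past the threshold. It was 2 at a summed count of at least 100, where fewer genes are tested, 50 with no minimum log2 ratio, and 1 with edgeR's exact test, where B3gnt4, B3galt2, Chst13 and Galnt13 were no longer past the threshold. With St6galnac1 and Gm11735 summed, or library sizes without acinar and red blood cell markers, both chosen after seeing the data, it was 5. The same leading transcript was found in 33 of 39 genes with at least 200 counts in each library, and in 35 of 43 with posterior means. Against the spread of 1 SD between the libraries, the summed levels of the 13 roles moved in 13 with FPKM, 12 with TPM rescaled over protein-coding genes, and, chosen after seeing the data, 12 by longest transcript and 5 with complete coding transcripts. FPKM and the rescaled TPM multiply all genes of a library by the same factor, so those moves are a change of unit. They leave the order and shares of the genes within a library as they were. The direction of the 5 log2 ratios kept its sign in every setting that gave one. For the sums without a test, 4 of 13 roles changed which library was higher between TPM and the longest-transcript level: St3gal (204.7 and 233.5 TPM, 234.1 and 223.8 by longest transcript), St6galnac (1640 and 1674, 1145 and 1121), B3galt (121.5 and 122.8, 190.8 and 185.4) and St6gal (22.8 and 22.99, 34.4 and 33.5). No paired analysis was possible because there is 1 group. Leaving out a library leaves nothing to compare, so the library comparison and the leading transcripts have no such value. Depth limits the genes below 1 TPM: at 0 counts a library allows up to 3.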
